A study of Mus musculus with 7 samples.

Results

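MiR-340 is made from a single hairpin, mir-340, in an intron of the ubiquitin ligase gene Rnf130, and both of its arms were counted in CD8+ T cells of the mouse spleen. The 2 members described here, mmu-miR-340-5p and mmu-miR-340-3p, called miR-340-5p and miR-340-3p, are the mature RNAs cut from the 5′ and the 3′ side of that hairpin. They were found by name among 1978 mature miRNA names, each on 1 line under 1 precursor. Both were chosen by their measured levels in these same libraries, which an earlier look had found higher in virtual memory than in true naive cells. That contrast is therefore given as a description, with no test, and the tests concern age and the balance of the arms.

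The libraries are small RNA from CD8+ T cells of gBT-I animals, which bear a transgenic T cell receptor for a herpes simplex virus peptide. Both ages share that transgene, the magnetic enrichment for CD8α and the sort, so the cells do not have the receptor diversity of an ordinary animal. CD44hi CD122hi cells are virtual memory (VM) cells, which have a memory-like surface without having met their antigen. Cells sorted as CD44lo CD122lo are called true naive (TN). The libraries came from adult VM (n = 2), adult TN (n = 2), neonatal VM (n = 2) and neonatal TN (n = 1), with no age in days, strain or pooling of animals given in the labels. Since nothing says that replicates came from separate animals, the p-values measure only how far these libraries spread, and that spread may be technical.

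A miRNA that lies in an intron is transcribed with its host gene, released as a hairpin by Drosha and cut by Dicer into a short duplex. An Argonaute protein keeps one strand of the duplex as the guide, and bases 2 to 8 of that strand, the seed, set which messenger RNAs it binds and represses. As background, the strand whose 5′ end is more weakly paired in the duplex tends to be kept. MiR-340 has been studied mostly in tumour cells, where the 5p arm was described as restraining growth and migration, and RNF130 is a membrane protein of the Goliath family of RING-type ubiquitin ligases.

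The sequences are shown because the 2 arms share no seed and differ in base composition, to which the results refer. They are written 5′ to 3′ from RefSeq on GRCm38.p6 (both members matched by name), with the seed of each mature RNA in capitals, and in the hairpin with the 2 arms in capitals.
miR-340-5p: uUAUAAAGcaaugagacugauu
miR-340-3p: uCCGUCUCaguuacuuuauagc
mir-340 hairpin: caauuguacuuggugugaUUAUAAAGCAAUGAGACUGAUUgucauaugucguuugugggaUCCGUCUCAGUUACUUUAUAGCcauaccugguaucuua

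The hairpin lies on the plus strand of chromosome 11 from 50069702 to 50069799 (GRCm38), with miR-340-5p at 50069720 to 50069741 and miR-340-3p at 50069762 to 50069783. Rnf130 runs along the same strand from 50025346 to 50104758. In both GENCODE M21 transcripts that span it, the hairpin sits in intron 2, which is 18200 bases long, 16731 bases after the upstream exon and 1371 bases before the next one. The nearest annotated miRNA gene downstream, Mir6919, begins 162 kb away and neither of its mature names had a count in any library. The nearest upstream, Gm23492, lies 174 kb away and has no mature name in the table. No annotated miRNA gene lies closer to the hairpin on that chromosome.

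**Figure D1:**
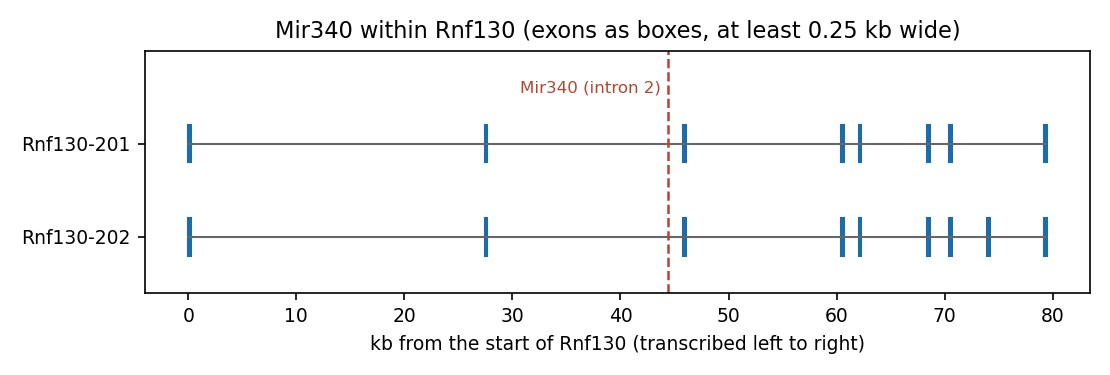
Position of Mir340 within Rnf130. The horizontal axis gives kb from the start of Rnf130, blue boxes are the exons of the 2 transcripts that span the hairpin, grey lines are introns, and the dashed line marks Mir340 in intron 2, close to the exon that follows it.

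No other of the 1679 mature mouse miRNA names with a RefSeq sequence carries the seed UAUAAAG of miR-340-5p or the seed CCGUCUC of miR-340-3p. None shares bases 2 to 7 with either. A seed of its own is not unusual, since 122 of the 236 tested miRNAs with a sequence shared theirs with no other name in the table. MiR-340-5p is unusual in composition. It has 6 G or C bases in 22, which is 27.3%, and only 1 of those 236 miRNAs had a lower share, against a median of 47.8%. MiR-340-3p has 9 in 22, or 40.9%.

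RNAfold gave the hairpin a minimum free energy of -33.9 kcal per mol, with 34 base pairs and 20 bases between the arms. Of the 22 bases of miR-340-5p, 18 were paired, including all 7 of its seed, and 16 of the 22 bases of miR-340-3p were paired. The first 4 bases of miR-340-5p formed 4 pairs without a G-C pair among them. The first 4 of miR-340-3p formed 3 pairs, of which 2 were G-C pairs.

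The 7 libraries held 1577031 to 3278451 counts, and 288 miRNAs, both arms of mir-340 among them, reached 10 CPM in 2 or more libraries and were tested. CPM are counts relative to the library's size, scaled here by TMM factors, which set the libraries to a common centre. A list of 7 miRNAs drawn up for T lymphocytes summed to 246000 to 654400 CPM per library. It holds miR-150-5p, both arms of miR-142a, miR-181a-5p, miR-155-5p, miR-16-5p and miR-191-5p. The myeloid pair miR-223-3p and miR-223-5p summed to at most 15.9 CPM. Of these, miR-223-3p stood at 15.57 CPM in adult VM replicate 2 and at 0.99 to 5.64 CPM in the other libraries. An erythroid list of 3 miRNAs summed to 80 to 297.1 CPM per library. A liver and epithelium list of 3 summed to 20.5 to 39.85 CPM, and a stromal, endothelial and muscle list of 5 to 10.3 to 75.7 CPM. Levels within these lists were uneven. MiR-1a-3p was at 0 in all libraries and miR-122-5p averaged 0.154 CPM. In contrast, miR-486a-5p averaged 172 CPM, miR-143-3p 28.4, miR-200c-3p 14.7 and miR-205-5p 12.2. The replicates of adult VM lay further apart than those of the other groups, with 30 of 288 miRNAs over 2-fold apart between them, against 10 for adult TN and 7 for neonatal VM.

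MiR-340-5p is the abundant arm. It stood at 649 and 1494 CPM in the 2 adult VM libraries (1611 and 4318 counts) and at 257 and 257 CPM in the 2 adult TN libraries (476 and 601 counts). It reached 1709.9 and 2350.3 CPM in the 2 neonatal VM libraries (3456 and 8990 counts), beside 634 CPM in the only neonatal TN library (2035 counts). Both neonatal VM libraries lay above every other library and both adult TN libraries below every other. The means were 1071 ± 597 CPM in adult VM, 257.2 ± 0.254 CPM in adult TN and 2030.1 ± 453 CPM in the neonatal VM pair (SD, n = 2 each). Adult VM replicate 1 and the neonatal TN library, at 649 and 634 CPM, were close to each other. The 2 groups in the middle of this order differ in both age and subset and were not tested against each other. Within a library, miR-340-5p ranked between 41st and 101st of the 288 tested miRNAs.

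MiR-340-3p, the scarcer arm, stood at 43.9 and 40.1 CPM in adult VM (109 and 116 counts) and at 22.1 and 33.4 CPM in adult TN libraries (41 and 78 counts). The neonatal VM libraries had 184 and 164 CPM (371 and 627 counts), and the neonatal TN library had 49.2 CPM (158 counts). The order was neonatal VM first, at 174 ± 13.9 CPM, far from the rest, then neonatal TN at 49.2, adult VM at 42.0 ± 2.67 and adult TN at 27.8 ± 7.97 (SD, n = 2 each where an SD is given). Adult VM and neonatal TN, next to each other in that order, were 5.29 CPM apart at their nearest libraries. From its lowest to its highest library miR-340-3p spanned 8.29-fold and miR-340-5p 9.14-fold, the 31st and the 26th widest range of the 166 miRNAs averaging 50 CPM or more.

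**Figure D2:**
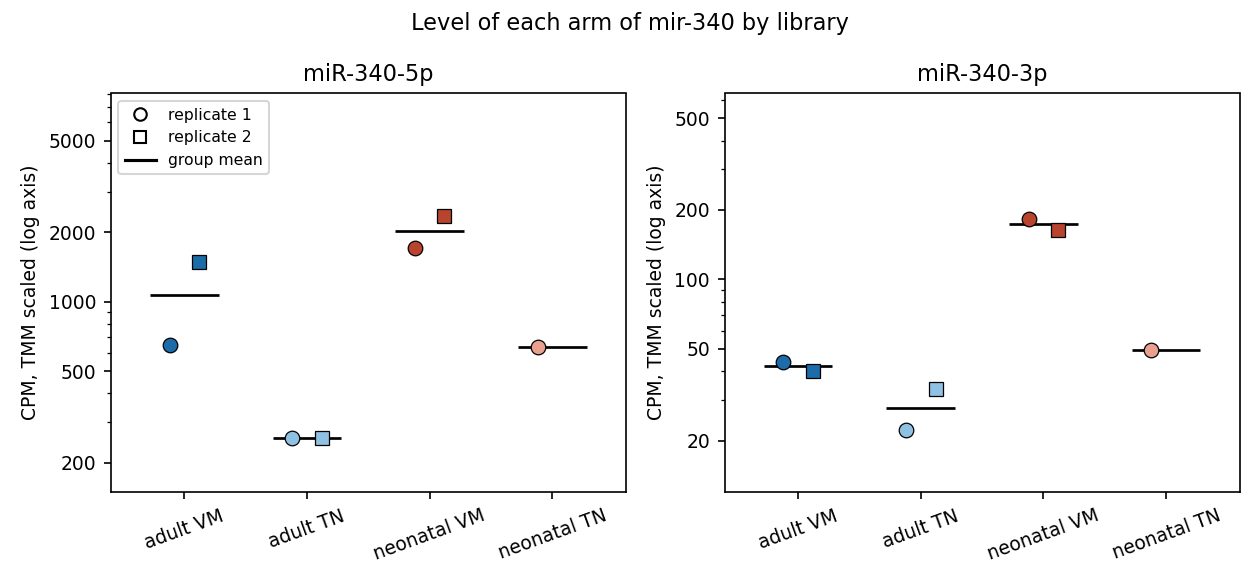
Level of miR-340-5p and miR-340-3p in each library. The vertical axes give CPM scaled by TMM factors on a log axis, circles and squares are replicates 1 and 2 within each of the 4 groups, and bars are group means. Neonatal VM is highest for both arms (1709.9 and 2350.3 CPM for 5p, 184 and 164 CPM for 3p), and adult VM splits for the 5p arm only (649 and 1494 CPM).

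Age was the comparison that did not enter the choice of miR-340. Over both subsets, miR-340-5p was 2.11-fold lower in adult than in neonatal cells (log2 difference -1.07, SE 0.28, adjusted p = 0.0118, edgeR). MiR-340-3p was 3.01-fold lower in adult cells (log2 difference -1.59, SE 0.31, adjusted p = 0.00265, edgeR). Both members were thus called lower, in a comparison where 53.8% of the 288 miRNAs were called, 26.4% lower and 27.4% higher in adult cells. The 4 adult libraries, at 22.1 to 43.9 CPM, did not overlap with the 3 neonatal ones, at 49.2 to 184 CPM, for miR-340-3p, which held for 47.6% of the 288 tested miRNAs in either direction. They did overlap for miR-340-5p, at 257 to 1494 CPM in adult and 634 to 2350.3 CPM in neonatal libraries. In bulk RNA, fewer cells that carry a miRNA and less of it per cell cannot be told apart.

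The call for miR-340-5p with age rested on single libraries: its adjusted p was 0.0547 without adult TN replicate 1 and 0.0728 without the neonatal TN library (edgeR), with log2 fold changes of -0.98 and -0.95, the second of which compares VM cells alone. Scaled by library totals alone, the median of all tested miRNAs was -0.40 in place of 0.05 on the log2 scale, with 53 called higher and 119 lower in adult cells against 79 and 76 with TMM factors, and the 2 arms stood at -1.53 and -2.05. Among markers of other cells, the stromal, endothelial and muscle list of 5 miRNAs moved with age, summing to 10.3 to 30.1 CPM in adult and 49.0 to 75.7 CPM in neonatal libraries, with 2 of its 5 members tested and both called lower in adult cells. By subset that list summed to 24.2 to 60.4 CPM in VM and 10.3 to 75.7 CPM in TN libraries, which overlapped. The 2 tested members were miR-143-3p and miR-126a-3p, with log2 differences with age of -1.82 and -1.28 (adjusted p = 0.0163 and 0.0122, edgeR). Of the members not tested, miR-145a-5p was at most 0.311 CPM, miR-1a-3p was at 0 and miR-133a-3p averaged 0.912 CPM. The part of such cells in the age difference of miR-340 was not tested.

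Within VM cells both arms had lower values in the adult libraries, and the difference between the arms was tested over both subsets alone, as the arm ratio with age. MiR-340-3p was 4.13-fold lower in adult VM than in neonatal VM cells (log2 difference -2.05, SE 0.28, adjusted p = 7.49e-05, edgeR), in a comparison that called 53.8% of miRNAs, 22.9% lower and 30.9% higher in adult VM cells. MiR-340-5p had 649 and 1494 CPM in adult VM and 1709.9 and 2350.3 CPM in neonatal VM, which did not overlap (as for 78.1% of all tested miRNAs), but it did not pass the test (log2 difference -0.92, SE 0.38, adjusted p = 0.081, edgeR). That value turned on single libraries. It was -0.44 without adult VM replicate 1, -1.70 without adult VM replicate 2 and -1.15 without neonatal VM replicate 1. Each of these fits left a lone library in a compared group, so only the size is given. With all libraries, miR-340-5p passed with library totals (-1.44), upper quartile scaling (-1.03), no filter (-0.80), a filter of 100 CPM (-1.14), DESeq2 (-1.03) and limma voom (-1.03). It did not pass with RLE scaling (-1.03) or with the largest line of each name in place of the sum (-0.89). Nor did it pass with the VM libraries alone (-0.87).

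Within TN cells, 2 adult libraries were set against 1 neonatal library, which has no replicate, so the test takes its spread from the other groups and says nothing of how neonatal TN samples vary. MiR-340-5p had 257 and 257 CPM in adult TN and 634 CPM in neonatal TN (log2 difference -1.30, SE 0.45, adjusted p = 0.0515, edgeR). MiR-340-3p had 22.1 and 33.4 CPM in adult TN and 49.2 CPM in neonatal TN (log2 difference -0.82, SE 0.34, adjusted p = 0.0641, edgeR). Neither passed, where 47.9% of miRNAs were called, 26.4% lower and 21.5% higher in adult TN cells. Which side of the threshold they fell on changed with single libraries, VM ones included, since those set the spread, so neither result is firm. MiR-340-5p stood at -1.27 and -1.26 without adult VM replicate 1 and 2, and at -1.21 without either neonatal VM replicate. MiR-340-3p stood at -0.77 and -0.78 without adult VM replicate 1 and 2, and at -0.43 without adult TN replicate 1.

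Between the subsets, miR-340-5p was 3.74-fold higher in VM than in TN cells over both ages (log2 difference 1.90, SE 0.30) and miR-340-3p was 2.12-fold higher (log2 difference 1.08, SE 0.33). This is the contrast for which the miRNA was chosen, in which 24.7% of all tested miRNAs were called, 10.8% higher and 13.9% lower in VM cells. The value for miR-340-3p was 0.58 without the neonatal TN library. Among adult cells alone 38.9% of miRNAs were called, 23.3% higher in VM, and among neonatal cells 9.72% were, with 3.12% higher and 6.6% lower in VM. For miR-340-5p the difference between VM and TN was 4.17-fold in adult and 3.20-fold in neonatal cells (log2 2.06, SE 0.40, and 1.68, SE 0.50). For miR-340-3p it was 1.5-fold in adult and 3.53-fold in neonatal cells (log2 0.59, SE 0.29, and 1.82, SE 0.36). The adult values moved to 1.22 for miR-340-5p without adult VM replicate 2 and to 0.21 for miR-340-3p without adult TN replicate 1. All 4 VM libraries lay above all 3 TN libraries for miR-340-5p, at 649 to 2350.3 against 257 to 634 CPM (18.8% of all tested miRNAs did not overlap), whereas for miR-340-3p the 2 adult VM libraries lay below the neonatal TN library.

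**Figure D3:**
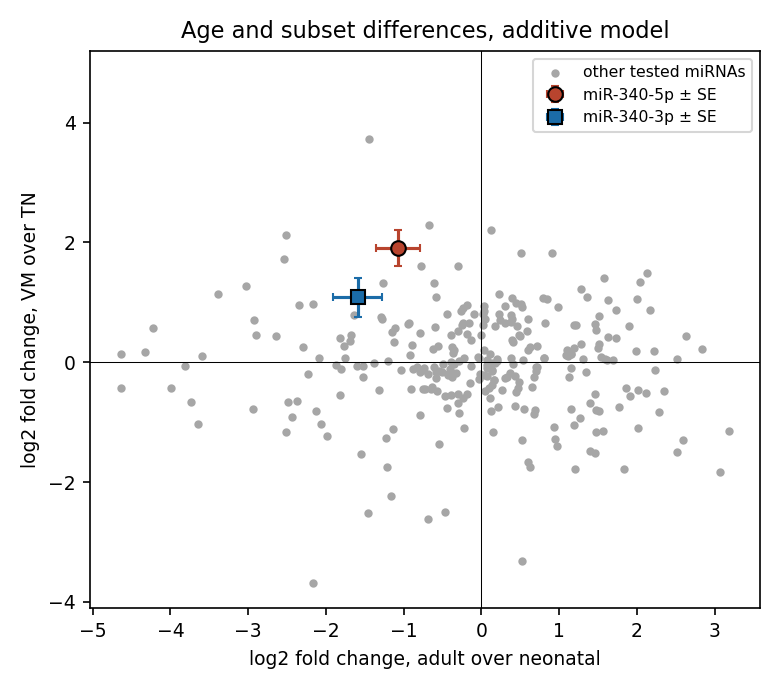
Differences with age and with subset for the 288 tested miRNAs. The horizontal axis gives the log2 difference of adult over neonatal and the vertical axis that of VM over TN, both from the additive model, grey points are the other miRNAs, and the coloured points with SE bars are the arms of mir-340. Both arms lie left of 0 (-1.07 and -1.59) and above 0 (1.90 and 1.08).

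Whether the difference between VM and TN depended on age was tested by the interaction, taken as the adult minus the neonatal difference. Its parts are the differences for which miR-340 was chosen, and 1 of its groups is the single neonatal TN library. The p-values are thus not independent of that choice and are not firm. The interaction was -1.23 on the log2 scale for miR-340-3p (SE 0.44) and did not pass (adjusted p = 0.111, edgeR). For miR-340-5p it was 0.38 (SE 0.60, adjusted p = 0.797, edgeR). The test called 7.99% of all miRNAs, 6.25% with a positive and 1.74% with a negative interaction. For miR-340-3p the adjusted p was 0.0393 with upper quartile scaling (edgeR) and 0.0418 by DESeq2, so its side of the threshold changed with these choices. Its interaction was -1.33 and -1.25 without adult VM replicate 1 and 2. For miR-340-5p the sign changed with 1 library, as the interaction was 0.83 without adult VM replicate 1 and -0.44 without replicate 2.

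The balance of the arms can be read within a library and needs no scaling between libraries. Over all 7 libraries miR-340-5p had 21487 counts and miR-340-3p 1500, so the 3p arm made up 6.53% of the counts of both. Its share was 6.34% and 2.62% in the adult VM libraries and 7.93% and 11.5% in the adult TN libraries. Among neonatal cells it was 9.69% and 6.52% in VM and 7.20% in TN. Adult VM replicate 2 stood lowest and adult TN replicate 2 highest. Both adult VM libraries lay below the other 5, the nearest of which, neonatal VM replicate 2 at 6.52%, was close to adult VM replicate 1 at 6.34%. Of 78 hairpins with both arms measured, 33.3% had an arm ratio in adult VM that did not overlap with the other libraries, 15.4% with relatively less of the 3p arm.

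The 95% Wilson intervals take in counting error alone (without molecular identifiers, reads are not independent molecules). Where 2 of them do not overlap, the shares differed by more than that error. In adult VM the intervals ran from 5.28 to 7.59% in replicate 1 and from 2.19 to 3.13% in replicate 2. In neonatal VM they ran from 8.80 to 10.7% and from 6.04 to 7.03%. Neither of these pairs overlapped, whereas in adult TN the intervals, 5.90 to 10.6% and 9.30 to 14.1%, did. Shares can differ beyond counting error while their intervals overlap, so the adult TN pair is left undecided.

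**Figure D4:**
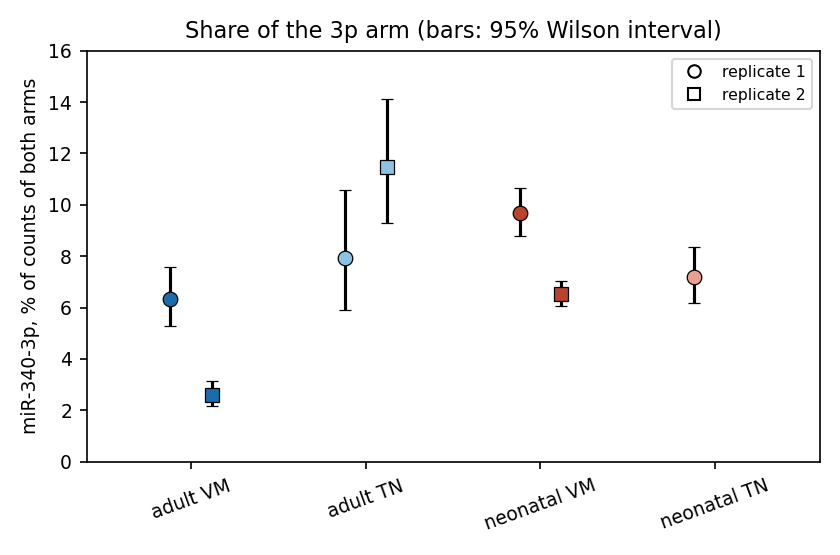
Share of miR-340-3p in the counts of both arms of mir-340. The vertical axis gives the share in percent, circles and squares are replicates 1 and 2 within each of the 4 groups, and error bars are 95% Wilson intervals for counting error. Adult VM replicate 2 is lowest at 2.62% and adult TN replicate 2 highest at 11.5%.

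With age, the log2 ratio of the 3p to the 5p arm averaged -3.89 in adult and -3.58 in neonatal libraries. The fitted difference was -0.43 (SE 0.44, limma adjusted p = 0.456 over 78 hairpins with both arms above the filter), moving to 0.052 when adult VM replicate 2 was left out and to -1.02 when the neonatal TN library was. In that comparison 29.5% of the hairpins were called. By subset the ratio averaged -4.04 in VM and -3.38 in TN libraries, a fitted difference of -0.73 (SE 0.44), given without a test because both arms entered through that contrast.

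Among the 78 hairpins, 50 had more counts from the 5p and 28 from the 3p arm, and the mean log2 ratio of mir-340, -3.76, was the 32nd from the lowest. Its neighbours in that order were mir-98 (-4.18) and mir-20b (-4.27), with relatively less of the 3p arm, and mir-142a (-3.71) and mir-1843a (-3.57), with relatively more. For 47 hairpins the arms were further out of balance than for mir-340. The SD of the ratio between replicates, pooled over the 3 groups with 2 libraries, was 0.65 for mir-340, the 11th highest of 78, against a median of 0.34.

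**Figure D5:**
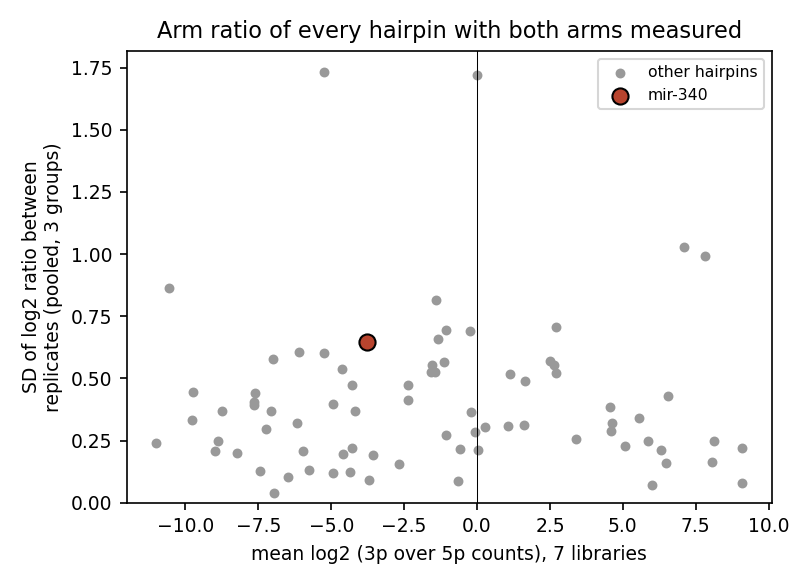
Arm balance of 78 hairpins with both arms measured. The horizontal axis gives the mean log2 ratio of 3p to 5p counts over 7 libraries, the vertical axis its SD between replicates pooled over 3 groups, and the large point is mir-340 at -3.76 and 0.65. It lies among the 5p-dominant hairpins, in the upper part of the range of replicate SD.

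The difference in arm balance within adult VM lay in the 5p arm. MiR-340-5p was 2.30-fold higher in replicate 2 than in replicate 1, and 17 of 288 miRNAs differed more between these libraries. MiR-340-3p stood at 40.1 CPM in replicate 2, against 43.9 CPM in the other, with 237 miRNAs differing more. Levels in these 2 libraries also followed base composition to different degrees. Across the 236 tested miRNAs with a sequence, the level in adult VM replicate 2 fell by 0.41 on the log2 scale per 10 percentage points of GC content, relative to the mean over libraries, and that in replicate 1 fell by 0.19. In every other library the level rose with GC content instead, by 0.055 (adult TN replicate 1) to 0.24 (neonatal TN) per 10 percentage points. The 19 miRNAs with at most 35% GC had a median log2 difference of 0.33 between adult VM replicates 2 and 1, and the other 217 of -0.02.

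With each library's trend on GC content removed, an alternative chosen after seeing the data, miR-340-5p was lower in adult cells by more, at a log2 difference of -1.77 over both subsets, -1.86 in VM and -1.63 in TN cells (edgeR adjusted p = 0.000157, 1e-04 and 0.000878). Its difference between VM and TN cells was smaller, at 1.23 over both ages, and 1.14 in adult cells against 1.37 in neonatal cells. MiR-340-3p moved less, to -1.84 with age (adjusted p = 0.0017, edgeR) and 0.85 with subset over both ages, and in TN cells it reached -0.93 with age (adjusted p = 0.04, edgeR). What sets the trend in these libraries was not tested. Its slope was negative in both adult VM libraries and positive in all others, so it cannot be told apart from that group.

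The miRNAs whose log2 level over the 7 libraries was most like that of miR-340-5p, among 164 others with a mean of at least 50 CPM, were miR-106b-5p (Pearson's r = 0.96), miR-30e-5p (0.934), miR-21a-3p (0.927), miR-421-3p (0.875) and miR-330-5p (0.846). MiR-340-3p itself came after 9 of these 164, at 0.829. For miR-340-3p they were miR-330-5p (0.929), miR-186-5p (0.907), miR-130b-5p (0.903), miR-421-3p (0.901) and miR-181c-3p (0.875), with 10 of 164 ahead of miR-340-5p. These correlations describe 7 libraries from 4 groups that share depth and composition, and carry no test. They take no account of size, as miR-106b-5p ran only from 349.9 to 686.5 CPM. With age, miR-106b-5p and miR-30e-5p were not called (log2 difference -0.16 and -0.44, adjusted p = 0.441 and 0.122, edgeR). The other named miRNAs were called lower in adult cells, as were 26.4% of all 288. All were picked for likeness to arms that are themselves lower there, so these calls are a description only. Only miR-330-5p and miR-421-3p were named for both arms. MiR-330-5p stood at 52.4 and 42.9 CPM in adult VM libraries, against 29.2 and 26.1 CPM in adult TN, and at 109 and 119 CPM in neonatal VM libraries, against 70.4 CPM in neonatal TN, an order of groups like that of miR-340-3p. MiR-106b-5p lies in an intron of Mcm7 and miR-30e-5p in an intron of Nfyc, whereas miR-21a-3p lies in an exon of Vmp1.

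Tested miRNAs were searched for a host gene only where they had a single annotated position, 217 of the 288, while the shares over all take in the rest. Of these 217, 82 besides the arms of miR-340 lie, like it, in an intron of a protein-coding gene on its strand. With age, 19 of them were called higher and 23 lower in adult cells, beside 27.4% and 26.4% of all 288, with a median log2 difference of -0.11, beside 0.05 over all. With subset, 5 were called higher and 7 lower in VM cells, beside 10.8% and 13.9% of all, with a median of -0.07, beside 0.01 over all. Of 13 miRNAs linked to T cell activation, a list put together with earlier results of these data known, 12 were tested. With subset, 4 were called higher and 1 lower in VM cells, beside the same 10.8% and 13.9% of all, with a median of 0.82. With age, 2 were called higher and 4 lower in adult cells, beside 27.4% and 26.4% of all, with a median of -0.42. The 3 most abundant of them are miR-21a-5p, which rises on activation, miR-182-5p, and miR-146a-5p, a brake on NF-kB signalling. With subset they stood at 2.21, 1.09 and 1.82 on the log2 scale. With age they stood at 0.12, -0.59 and 0.91 (adjusted p = 0.658, 0.263 and 0.0516, edgeR). Since the list was made with the data known, its subset values and counts are a description and not a test.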

How the data were processed

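Small RNA libraries of 7 sorted CD8+ T cell samples were made with the Illumina TruSeq kit, per the labels' protocols. The authors deposited estimated counts per mature arm and precursor, with fractional values. Per the submitters' processing notes the build was mm10, and the aligner and counter are not given in the sources used here. Lines were summed per mature name and rounded. For the 85 names on several lines, whole sums (within 0.02) were more frequent than whole lines, 53.1% against 16.2%, and all values of miR-340 were whole. The robust quasi-likelihood test of edgeR 4.0.16 (R 4.3.3) was run with TMM factors, Benjamini-Hochberg adjusted at 0.05 over 288 miRNAs. Averages over age or subset came from an additive model, other comparisons from a model of group means. Arm ratios (0.5 added to each count) were fitted in limma 3.58.1 with a prior variance that follows abundance. DESeq2 1.42.0, limma voom, other scalings and filters, the replicate block and leaving out each library were alternatives. The scripts were tested on simulated data. Names came by rule: both arms, the 5 miRNAs most like each (r of log2 CPM), those sharing a seed, the nearest miRNA genes and hairpins, and up to 3 of the activation list. The members and lists were chosen with earlier results of these data known. Structures came from RNAfold 2.7.2, and figures from matplotlib 3.10.9. Rnf130 messenger RNA and targets were not analysed here.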

Additional observations from a re-analysis of the deposited data

How the results depend on the processing

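Both arms were lower in adult cells in every setting run for age, and higher in VM cells in every setting run for subset; calls and sizes moved as follows. For miR-340-5p, age in VM passed (edgeR unless another tool is named) with library totals (-1.44), upper quartile scaling (-1.03), no filter (-0.80), the 100 CPM filter (-1.14), DESeq2 (-1.03), limma voom (-1.03) and the GC offset (-1.86). It did not pass with RLE scaling (-1.03), the largest line of each name (-0.89) or only the libraries compared (-0.87). Age in TN passed with library totals (-1.66), no filter (-1.12), the 100 CPM filter (-1.37), DESeq2 (-1.27), limma voom (-1.30), the GC offset (-1.63) and only the libraries compared (-1.45). For miR-340-3p, age in TN passed with library totals (-1.19) and the GC offset (-0.93), and the interaction with upper quartile scaling (-1.63) and DESeq2 (-1.37). Neither passed in any other setting that kept all libraries. With the TN libraries alone, age in TN was -1.45 for miR-340-5p and -0.97 for miR-340-3p, where the spread came from adult TN only. The interaction of miR-340-5p turned sign with upper quartile scaling (-0.041) and the GC offset (-0.23). By subset, the GC offset gave miR-340-5p 1.23 over both ages and 1.14 in adult cells and miR-340-3p 0.27 in adult cells, and upper quartile scaling gave miR-340-3p 2.20 in neonatal cells; the causes were not tested.

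With each library left out, miR-340-5p ranged from -1.48 to -0.85 with age over both subsets, -1.70 to -0.44 in VM, -1.27 to -1.18 in TN, -0.44 to 0.83 for the interaction and 1.22 to 2.51 by subset in adult cells. MiR-340-3p ranged from -1.03 to -0.43 with age in TN, -1.57 to -1.03 for the interaction, 0.58 to 1.40 by subset over both ages and 0.21 to 0.87 by subset in adult cells, and the arm ratio with age from -1.02 to 0.052 (positive without adult VM replicate 2). Counts of calls ranged from 83 to 179 for age in TN (138 with all libraries), 6 to 86 for the interaction (23), 18 to 111 for subset over both ages (71), 23 to 142 in adult cells (112), 16 to 77 in neonatal cells (28) and 11 to 32 hairpins for the arm ratio (23). Without the neonatal TN library, age in TN, subset in neonatal cells and the interaction could not be fitted. A lone library left in a group was taken to vary like the others.

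Counts of calls also moved by over 1.5 times with the 100 CPM filter, which tests fewer miRNAs, to 79 for age over both subsets (155), 93 in VM (155), 69 in TN (138), 41 for subset over both ages (71) and 12 hairpins (23). For the interaction they were 43 with no filter, 38 by DESeq2 and 15 by limma voom, and for subset in neonatal cells 53 with no filter, 52 with upper quartile scaling and 80 with only the libraries compared. The split of calls moved with scaling. Library totals gave 49 higher and 117 lower for age in VM (89 and 66 with TMM), 38 and 106 in TN (62 and 76), 59 and 27 for subset over both ages (31 and 40) and 21 and 14 in neonatal cells (9 and 19). Upper quartile scaling gave 79 and 56 for age in TN, 12 and 18 for the interaction (18 and 5), 58 and 25 for subset over both ages and 38 and 14 in neonatal cells. RLE scaling gave 14 and 8 for the interaction and 14 and 19 for subset in neonatal cells.

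The other settings for the arm ratio, 1 or 0.1 added to each count and no trend in the prior variance, left its direction and its side of the threshold as they were. Nothing in the labels says that the replicate number pairs the libraries. Deviations of same-numbered libraries correlated at 0.01 (adult VM with adult TN), 0.13 (adult VM with neonatal VM) and -0.17 (adult TN with neonatal VM). With a single replicate difference per group, these values cannot decide whether libraries were paired. With the replicate number as a block, miR-340-5p passed with age in VM (-0.99) and TN (-1.56), the count for subset over both ages was 42 in place of 71, and the sides of the threshold of the other tested member results were as without it. The lowest depth behind a member was 41 and 78 counts of miR-340-3p in adult TN.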
